A study of Mus musculus with 8 samples.

Results

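Exosomal RNA in the serum of mice that never received tumour cells was compared between 2 times, before any injection (week 0) and 8 weeks after a sham injection of phosphate-buffered saline (PBS). The comparison uses 4 of the series' 8 libraries, grouped by their labels: 2 from week 0 and 2 from PBS at week 8. It was chosen with earlier results of these data known. All mice were NCr nu/nu, a strain whose nude mutation leaves it without a thymus and so short of T cells. The week 0 serum was pooled from all mice of the study before injection, while the PBS serum was pooled at necropsy from mice given 10 µl of PBS into the tibia. The other 4 libraries are week 8 serum pools of mice that received 100000 canine osteosarcoma cells of the line OSCA-32 or OSCA-40 in the tibia, and they enter here through the shared estimate of spread. Age, time, the sham injection, the set of mice pooled and collection at necropsy therefore differ together between the groups and cannot be told apart. No label states whether both libraries of a group derive from 1 serum pool or from different animals. The p-values therefore weigh differences against library-to-library scatter, part or all of which may be technical.

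Exosomes are small vesicles that cells release into body fluids, and serum exosome preparations also carry RNA from blood cells and from particles that precipitate with the vesicles. Mitochondria have their own circular genome, which is transcribed inside the organelle and encodes 13 proteins, all of them subunits of the respiratory chain or of ATP synthase. Pieces of that genome have been copied into nuclear chromosomes during evolution, and such nuclear copies can be almost letter for letter the same as the mitochondrial gene. Globin mRNAs come from red blood cell precursors and persist in reticulocytes, the young red cells of the circulation.

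The values in the table are relative amounts within a library: the 4 libraries sum to between 977106 and 978509, and their sequencing depth is unknown. A 0 means only that a gene is listed at 0. The highest single mouse gene, Gm10800, held 17.6% and 16.1% of the total at week 0 and 16.9% and 16.1% at PBS week 8. Among genes with established symbols the highest were Tlr1, a receptor for bacterial lipopeptides, listed at 9695 and 10034 at week 0 and at 9130 and 10005 at PBS week 8, and Atp2b4, a calcium pump of the plasma membrane. Vesicle markers were listed at low to moderate levels. The tetraspanin Cd9 was listed at 198 and 234 at week 0 and at 208 and 192 at PBS week 8, whereas Cd63, another tetraspanin, was listed at 7 and 7 and at 6 and 7. The 28 vesicle genes together summed to 498 and 560 at week 0 and to 521 and 532 at PBS week 8. Their median level, from the mean of each gene over the 4 libraries, was 7.75. It was 9 for 20 brain genes and 2 for 220 vomeronasal type 2 receptors, lists taken as a gauge of background. The vesicle list thus stood above the vomeronasal list but not above the brain list.

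The sequences of the mitochondrial genes matter for reading their values, because a nuclear copy on chromosome 1 repeats 7 of them at 99% identity or more over at least 200 bases. The first 90 bases of mt-Co2 (GRCm38 chrM:7013-7102, plus strand, coding) are printed once here, because the copy Gm28661 (chr1:24614885-24615565, minus strand, an unprocessed pseudogene) has the same letters over all of its 681 bases. The other lines show the start of the aligned stretch in 2 pairs that differ at 1 base, which is in capitals: mt-Nd3 at chrM:9459-9501 with Gm28438 at chr1:24613077-24613119, and mt-Co1 at chrM:6390-6433 with Gm29216 at chr1:24616145-24616188. Counted from 1 at the first base of the mitochondrial gene, the substitutions are T3C in mt-Nd3 and A1066T in mt-Co1. The sequences are transcripts of GENCODE release M21, 5′ to 3′.
mt-Co2: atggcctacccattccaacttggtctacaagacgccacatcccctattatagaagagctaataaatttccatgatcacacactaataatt
mt-Nd3: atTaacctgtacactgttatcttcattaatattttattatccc
Gm28438: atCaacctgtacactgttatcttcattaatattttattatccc
mt-Co1: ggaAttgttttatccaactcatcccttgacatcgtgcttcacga
Gm29216: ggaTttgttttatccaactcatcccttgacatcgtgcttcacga
A read from such a stretch can be told from its copy only where it covers the base in capitals, and in mt-Co2 nowhere along those 681 bases.

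Few genes differed between the weeks, and those that rose were mostly mitochondrial. Of 7872 genes tested, 13 passed an adjusted p of 0.05 in limma (0.165%), 4 mouse genes higher (0.0523% of 7655) and 5 mouse genes lower (0.0653%), with 4 of 217 canine genes (1.84%). The mouse genes that rose were mt-Co1, mt-Co2, mt-Cytb and Gm20594, and those that fell were Gm28661, Hba-a2, Foxp2, Rhox8 and Stra8. The differences are log2 fold changes of PBS week 8 over week 0 on scaled values to which 1 was added, and they understate the change of genes with low values. The 13 called genes were not stable against the loss of a library: leaving out week 0 replicate 1, week 0 replicate 2 or PBS week 8 replicate 1 left 2 calls each and none of the 9 mouse genes, and leaving out PBS week 8 replicate 2 left 4 calls, of which Gm28661 was the only one of the 9. A fit on the 4 compared libraries alone also called 4 genes and kept mt-Co2 of the 9.

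**Figure D1:**
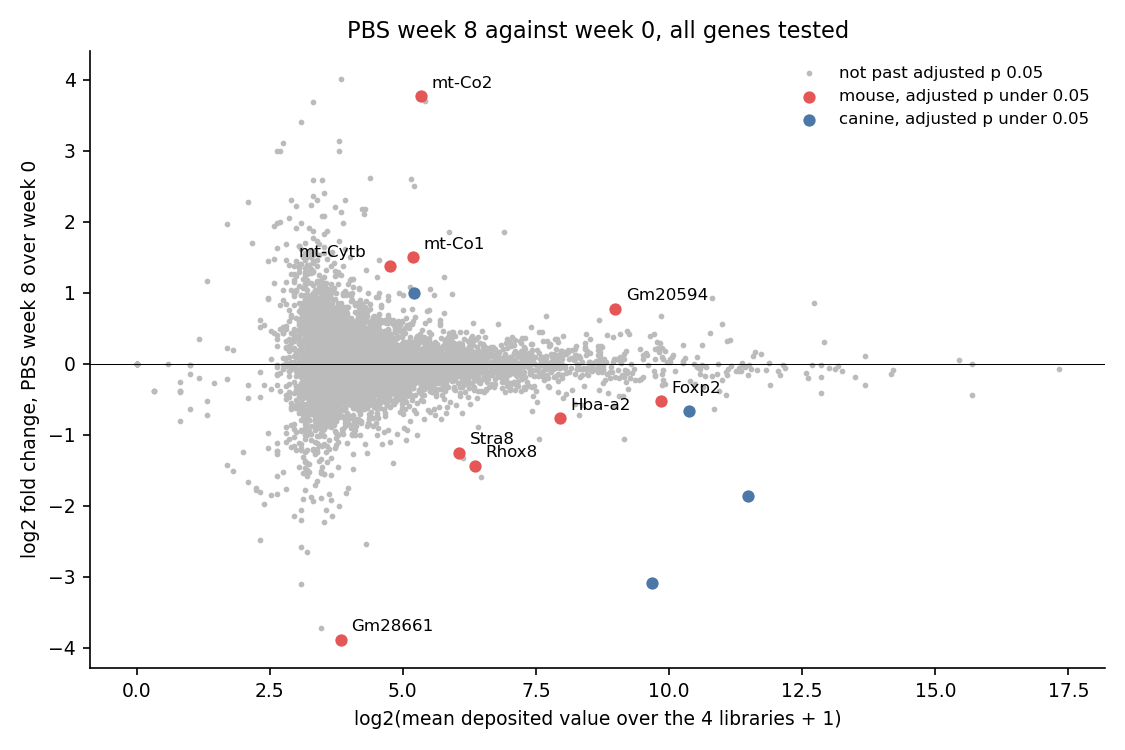
Log2 fold change (PBS week 8 over week 0) against log2(mean deposited value over the 4 libraries + 1), 1 point per gene for the 7872 genes tested; red points are the 9 mouse genes and blue points the 4 canine genes past an adjusted p of 0.05. Most genes lie close to 0, and mt-Co2 and Gm28661, which share a sequence, lie far out in opposite directions.

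For most genes the difference between weeks was about as large as that between 2 libraries of the same week. Over the 7655 mouse genes tested, the SD of the log2 ratio was 0.61 between the week 0 libraries and 0.62 between the PBS libraries, against 0.62 to 0.64 for the 4 pairs across weeks. The median log2 fold change was 0.00, with 50.4% of the mouse genes positive. At an unadjusted p of 0.05, 175 mouse genes were higher (2.29%) and 171 lower (2.23%), and 177 mouse genes were at least 2-fold higher and 123 at least 2-fold lower. Without a test, both PBS libraries lay above both week 0 libraries in 21% of the mouse genes and below them in 12.6%. Mouse genes listed at 1 or more numbered 28184 and 28072 at week 0 and 28467 and 28143 at PBS week 8. These counts overlapped between the groups (exact two-sided permutation p = 0.667). More mouse genes were listed at 5 or more at PBS week 8, 14570 and 14746, than at week 0, 13556 and 13721. The groups did not overlap in that count, and with 2 libraries against 2 the exact two-sided permutation p is 0.333, the smallest this design allows.

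All 13 mitochondrial mRNAs passed the filter and all 13 had a positive log2 fold change, with a median of 1.46 against 0.00 over all mouse genes. Of these, 3 were called higher, 9 had an unadjusted p under 0.05, and in 11 both PBS libraries lay above both week 0 libraries. Over all mouse genes tested, the shares that were higher by these 3 measures were 0.0523%, 2.29% and 21%. The sum of the 13 was 168 and 198 at week 0 and 514 and 673 at PBS week 8. It was 3.24 times higher on average at PBS week 8, without overlap, at the smallest exact permutation p of 0.333. With the nuclear copies added, the sum was 241 and 265 at week 0 and 627 and 766 at PBS week 8, 2.75 times higher.

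Complex IV, cytochrome c oxidase, passes electrons to oxygen, and its core is made of mt-Co1, mt-Co2 and mt-Co3. mt-Co1 (chrM:5328-6872) was listed at 17 and 18 at week 0 and at 55 and 53 at PBS week 8, a log2 fold change of 1.50 ± 0.12 (SE, n = 2 and 2, limma adjusted p = 0.0111). Its 2 groups were well apart and each was tight. mt-Co2 (chrM:7013-7696), which carries the first copper centre to receive electrons from cytochrome c, was listed at 4 and 4 and then at 67 and 84, a log2 fold change of 3.76 ± 0.31 (limma adjusted p = 0.0111). mt-Co3 went from 5 and 2 to 22 and 20, with a log2 fold change of 2.20 ± 1.57 (limma adjusted p = 1). The groups of mt-Co3 did not overlap, but its error was wide in the fit over 8 libraries, where the OSCA-32 libraries were listed at 1 and 18 and the OSCA-40 libraries at 0 and 12.

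Complex III passes electrons from ubiquinol to cytochrome c, and mt-Cytb is its mitochondrially encoded subunit. mt-Cytb (chrM:14145-15288) was listed at 14 and 13 at week 0 and at 35 and 43 at PBS week 8, a log2 fold change of 1.38 ± 0.17 (limma adjusted p = 0.0421). No nuclear copy reached the 99% identity used here for mt-Cytb, so its values do not depend on summing.

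Complex I, NADH dehydrogenase, takes 7 subunits from the mitochondrial genome, and none of them passed the threshold. mt-Nd1 came closest, at 9 and 13 against 29 and 39, with a log2 fold change of 1.46 ± 0.21 (limma adjusted p = 0.0812). mt-Nd4 was listed at 16 and 17 at week 0 and at 37 and 32 at PBS week 8, and mt-Nd2 at 15 and 19 and then at 38 and 30. mt-Nd5 was listed at 20 and 20 at week 0 and at 38 and 46 at PBS week 8. In these 4 genes both PBS libraries exceeded both week 0 libraries. mt-Nd6, the only 1 of the 13 encoded on the other strand, was listed at 23 and 27 and then at 40 and 51, a log2 fold change of 0.77 ± 0.29 (limma adjusted p = 0.963). mt-Nd4l was listed at 20 and 0 at week 0 and at 67 and 80 at PBS week 8, and mt-Nd3 at 0 and 0 and at 14 and 0. The zeros of mt-Nd3 and mt-Nd4l make their own rows uninformative without the copies.

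ATP synthase has 2 mitochondrially encoded subunits, which help form and support its proton channel. mt-Atp8 was listed at 25 and 21 at week 0 and at 72 and 111 at PBS week 8, a log2 fold change of 1.85 ± 0.33 (limma adjusted p = 0.199). mt-Atp6 was listed at 0 and 44 and then at 0 and 84, so its groups overlapped fully and its log2 fold change of 0.43 ± 2.87 carries no direction.

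**Figure D2:**
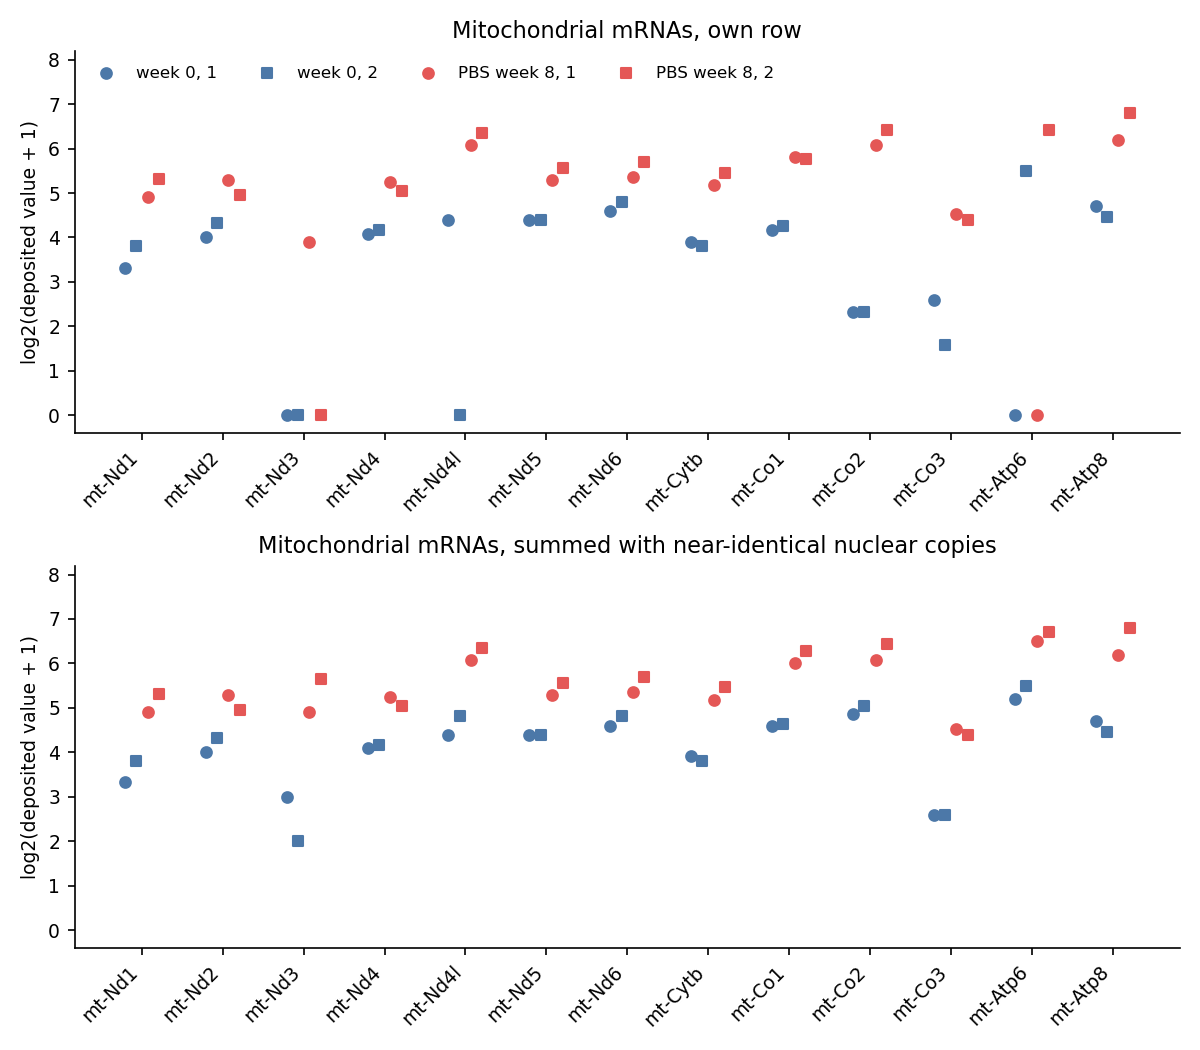
Log2(deposited value + 1) of the 13 mitochondrial mRNAs in each of the 4 libraries (blue, week 0; red, PBS week 8; circles, replicate 1; squares, replicate 2), as listed in their own rows (top) and after adding the near-identical nuclear copy where there is one (bottom). In the top plot mt-Nd3 and mt-Atp6 overlap between the weeks; in the bottom plot both PBS points lie above both week 0 points in 13 of 13.

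In several pairs the share of the values listed under the copy differed widely between libraries of 1 group. mt-Atp6 was at 0 in exactly the libraries in which its copy Gm10925 was highest: Gm10925 was listed at 36 and 0 at week 0 and at 90 and 19 at PBS week 8. The sum of mt-Atp6 and Gm10925 was 36 and 44 at week 0 and 90 and 103 at PBS week 8, tight within each week. The same was seen for mt-Nd4l at week 0, whose copy Gm10222 was listed at 0 and 27 at week 0 and at 0 and 0 at PBS week 8, giving sums of 20 and 27 and of 67 and 80. For mt-Nd3, the copy Gm28438 was listed at 7 and 3 and at 15 and 49, and the sums were 7 and 3 at week 0 and 29 and 49 at PBS week 8. Gm28437, the copy of mt-Co3, was listed at 0 and 3 at week 0 and at 0 and 0 at PBS week 8. With mt-Co3 the sums were 5 and 5 at week 0 and 22 and 20 at PBS week 8. In the grafted mice Gm28437 was listed at 41 and 16 for OSCA-32 and at 10 and 0 for OSCA-40. Gm29216, the copy of mt-Co1, was listed at 6 and 6 at week 0 and at 8 and 24 at PBS week 8. By contrast, Gm28439, the copy of mt-Nd4, was listed at 0 in all 8 libraries. How reads were assigned within a pair was not tested.

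Gm28661 was called lower while mt-Co2, whose sequence it repeats, was called higher. Gm28661 was listed at 24 and 28 at week 0 and at 0 and 1 at PBS week 8, a log2 fold change of -3.89 ± 0.34 (limma adjusted p = 0.013). Summed with mt-Co2, the pair stood at 28 and 32 at week 0 and at 67 and 85 at PBS week 8. The log2 fold change of the sum was 1.24 ± 0.16 (limma adjusted p = 0.0481), smaller than the 3.76 of mt-Co2 alone and opposite in direction to Gm28661 alone. In the libraries of mice with grafts, Gm28661 was listed at 0 and 0 for OSCA-32 and at 57 and 47 for OSCA-40.

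With the copies added, all 13 mRNAs were higher in both PBS libraries than in both week 0 libraries, and 5 passed the threshold: mt-Co1, mt-Co2, mt-Co3, mt-Atp6 and mt-Cytb. Over all mouse genes tested without summing, 21% were higher in both PBS libraries and 0.0523% were called higher. The summed log2 fold changes were 1.46 ± 0.15 for mt-Co1, 1.75 ± 0.20 for mt-Co3 (limma adjusted p = 0.0344) and 1.19 ± 0.13 for mt-Atp6 (limma adjusted p = 0.0321). The median over the 13 was 1.38, close to the 1.46 without summing. The 6 mRNAs that have no such copy summed to 106 and 113 at week 0 and to 252 and 320 at PBS week 8, 2.61 times higher, so the difference was also present where no copy reaches that identity.

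**Figure D3:**
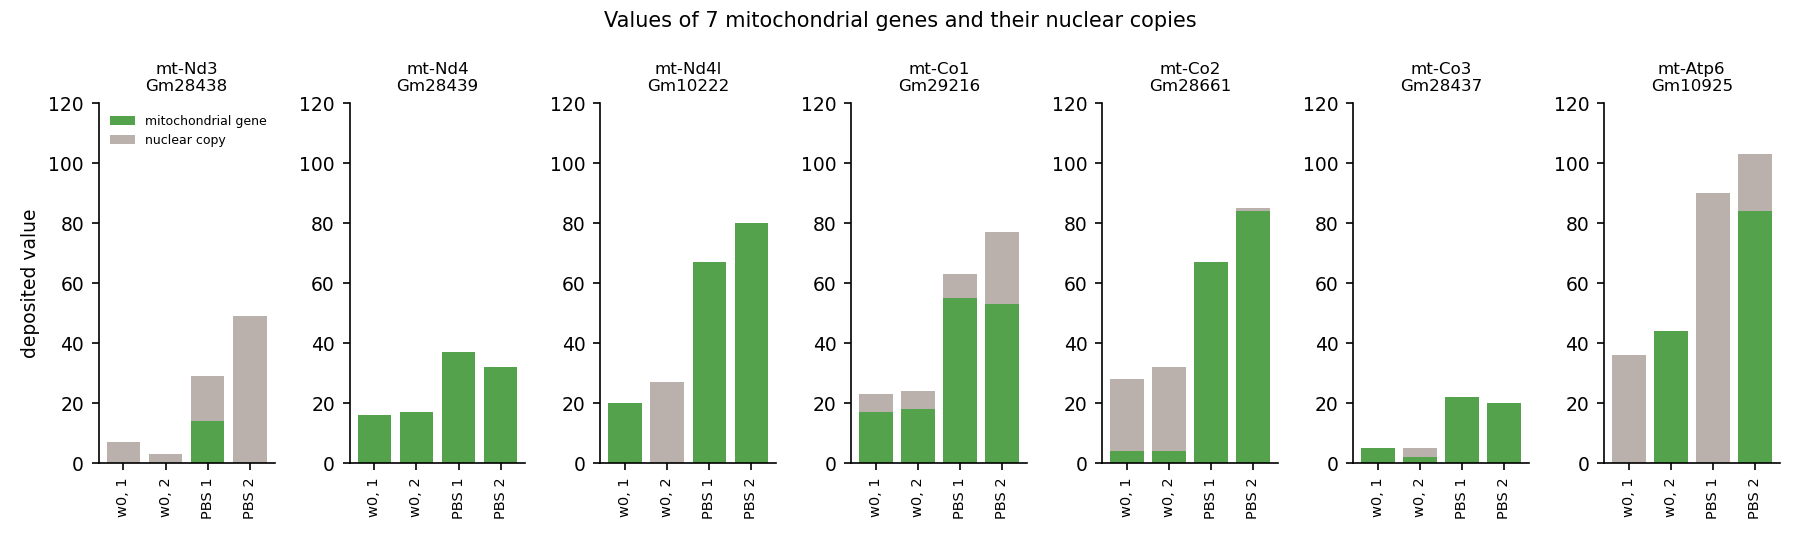
Deposited values of the 7 mitochondrial genes (green) and of their nuclear copies on chromosome 1 (grey), stacked, in the 2 week 0 and the 2 PBS week 8 libraries (w0, week 0). The split between green and grey differs between libraries of 1 group in mt-Atp6 and mt-Nd4l but not in mt-Nd4, whose copy is at 0 throughout, while the total height is higher in both PBS libraries for every pair.

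The ribosomal RNAs of mitochondria were not analysed here, but the fourth mouse gene that rose resembles one of them. Gm20594 (chr6:79817916-79818364, 1 exon, annotated as protein coding) aligns with mt-Rnr2, the 16S ribosomal RNA of the mitochondrial ribosome, at 88.5% identity over 435 bases. The lines below give 80 bases of its annotated coding stretch (chr6:79818251-79818330) and the aligned bases of mt-Rnr2 (chrM:2070-2149), with the 4 differing bases in capitals.
Gm20594: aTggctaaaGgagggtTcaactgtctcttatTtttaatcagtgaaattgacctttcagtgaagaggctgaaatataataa
mt-Rnr2: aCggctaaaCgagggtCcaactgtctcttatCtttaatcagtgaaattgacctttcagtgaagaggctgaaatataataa
Gm20594 was listed at 372 and 358 at week 0 and at 613 and 686 at PBS week 8, a log2 fold change of 0.77 ± 0.08 (limma adjusted p = 0.0292). Its level was higher than that of any of the 13 mRNAs. Whether reads of the 16S ribosomal RNA were assigned to Gm20594 was not tested.

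Subunits of the respiratory chain that are encoded in the nucleus had a median near that of all genes. Of 47 listed genes 20 were tested, none was called, 11 were positive and 9 negative, and the median log2 fold change was 0.04. In 8 of the 20 both PBS libraries lay above both week 0 libraries, and in 0 below them. Over all mouse genes tested these shares were 21% and 12.6%. The 47 genes summed to 966 and 999 at week 0 and to 1149 and 1249 at PBS week 8. The highest of them was Ndufb2, an accessory subunit of complex I, at 318 and 317 at week 0 and at 468 and 541 at PBS week 8. Most of the difference in the sum lay in Ndufb2. Its log2 fold change was 0.61 ± 0.11 (limma adjusted p = 0.199), without overlap between the groups. Sdha, the catalytic subunit of complex II, was listed at 11 and 29 and at 36 and 42. The cytosolic ribosomal proteins, with 50 of 80 tested, had a median of 0.00.

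Among the globins, the oxygen-carrying chains of haemoglobin, Hba-a2 alone was called. Hba-a2 (chr11:32296489-32297298), an alpha chain, was listed at 299 and 313 at week 0 and at 184 and 189 at PBS week 8, and fell by a log2 fold change of -0.76 ± 0.07 (limma adjusted p = 0.0153). Hba-a1, the second alpha gene, was listed at 24 and 33 and at 15 and 29, which overlap. The 2 alpha genes match at 99.8% over 538 bases with 1 mismatch, so the split of values between them is uncertain. The beta chains were lower in level: Hbb-bs was listed at 56 and 70 at week 0 and at 62 and 49 at PBS week 8, and Hbb-bt at 25 and 38 and at 11 and 22. Hbb-bt did not overlap between weeks, with a log2 fold change of -0.97 ± 0.45 (limma adjusted p = 1), while Hbb-bs overlapped.

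Of 11 erythroid genes tested, 4 are these globins, and Hba-a2 was the 1 called. Among the 7 others none was called, 4 were negative and 3 positive, and the median log2 fold change was -0.05. Slc4a1, the anion exchanger of the red cell membrane, was listed at 23 and 12 at week 0 and at 20 and 37 at PBS week 8. Alas2, the erythroid enzyme that starts haem synthesis, was listed at 5 and 5 and at 6 and 6. In bulk serum, fewer cells of a type and less RNA per cell cannot be told apart.

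The remaining mouse genes that fell are known from other tissues. Foxp2 (chr6:14901349-15441977), a forkhead transcription factor of the developing brain, was listed at 1069 and 1081 at week 0 and at 775 and 767 at PBS week 8. Its groups differed little within themselves, and the log2 fold change was -0.53 ± 0.05 (limma adjusted p = 0.0191). Rhox8 (chrX:37874778-37878944), a homeobox gene of the reproductive tract, was listed at 111 and 123 and at 47 and 41, a log2 fold change of -1.44 ± 0.16 (limma adjusted p = 0.0325). Stra8 (chr6:34920163-34939344), which germ cells need to enter meiosis, was listed at 88 and 96 at week 0 and at 34 and 45 at PBS week 8, a log2 fold change of -1.25 ± 0.16 (limma adjusted p = 0.0469). In the grafted mice Rhox8 was listed at 34 and 32 for OSCA-32 and at 15 and 19 for OSCA-40. Stra8 was listed at 24 and 22 and at 16 and 15, and Foxp2 at 891 and 964 and at 721 and 695. The factors by which deposited values were divided for scaling were 0.98 and 1.01 for OSCA-32 and 0.48 and 0.46 for OSCA-40. They were 1.42 and 1.44 at week 0 and 1.48 and 1.50 at PBS week 8. Deposited values of the grafted mice therefore cannot be read directly against those of the compared libraries. With library totals alone as the scaling, Foxp2 and Stra8 missed the threshold (limma adjusted p = 0.056 and 0.0597).

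Several genes with lower values at PBS week 8 share a stretch of repeated AAG triplets in an annotated transcript, a feature noticed after their values were seen. The search took runs of at least 24 bases of AAG, AGA or GAA, or on the other strand CTT, TTC or TCT, in any GENCODE transcript of a gene. The longest run of each of 5 such genes is shown in capitals with 20 flanking bases on either side, and the coordinates include these flanks. Rhox8 is the called one, and its run is coding (chrX:37878283-37878400, exon 2 of 4). The same exon holds another coding run of 75 bases. The other 4 were just short of the threshold or further from it: Gm19203 (chr7:86907024-86907141) and Gm7416 (chrX:114054089-114054212) are processed pseudogenes, and in Ovgp1 (chr3:105984672-105984744) and Ntm (chr9:29941971-29942091) the run lies in a non-coding transcript.
Rhox8: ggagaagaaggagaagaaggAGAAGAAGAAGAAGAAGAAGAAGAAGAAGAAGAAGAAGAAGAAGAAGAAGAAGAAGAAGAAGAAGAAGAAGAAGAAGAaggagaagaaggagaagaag
Gm19203: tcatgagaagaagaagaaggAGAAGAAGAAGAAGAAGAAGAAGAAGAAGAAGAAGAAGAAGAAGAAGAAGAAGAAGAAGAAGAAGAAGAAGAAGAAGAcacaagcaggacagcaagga
Gm7416: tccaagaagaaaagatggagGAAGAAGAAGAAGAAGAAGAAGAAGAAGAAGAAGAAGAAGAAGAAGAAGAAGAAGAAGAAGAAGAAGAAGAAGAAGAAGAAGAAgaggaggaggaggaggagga
Ovgp1: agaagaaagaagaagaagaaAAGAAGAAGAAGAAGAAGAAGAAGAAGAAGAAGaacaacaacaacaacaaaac
Ntm: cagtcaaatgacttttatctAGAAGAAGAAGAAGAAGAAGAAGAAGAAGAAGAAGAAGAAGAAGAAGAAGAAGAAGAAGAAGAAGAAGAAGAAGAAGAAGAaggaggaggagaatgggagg
Inside the runs the letters are the same, so a read no longer than the shortest of them that lies wholly inside a run fits all 5 genes.

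Gm19203 was listed at 102 and 115 at week 0 and at 60 and 60 at PBS week 8, a log2 fold change of -0.89 ± 0.11 (limma adjusted p = 0.0517). Ovgp1, a glycoprotein of the oviduct, was listed at 350 and 352 and at 250 and 241, a log2 fold change of -0.57 ± 0.08 (limma adjusted p = 0.0812). Ntm, a cell adhesion protein of neurons, was listed at 201 and 227 at week 0 and at 154 and 151 at PBS week 8, and Gm7416 at 322 and 315 and at 255 and 256. In these 4 genes both PBS libraries lay below both week 0 libraries. Of the 55 tested mouse genes that hold such a run (0.718% of those tested), 40 were negative, 11 were lower and 1 higher at an unadjusted p of 0.05, and the median log2 fold change was -0.12. Over all mouse genes tested 49.6% were negative, and 2.23% were lower and 2.29% higher at that p. The genes that drew attention to the run are among the 55, and the members share sequence, so they are not independent of each other.

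Runs of 2 letters were more common than AAG runs. Of the tested mouse genes, 1275 (16.7%) hold at least 24 bases of AC, CA, GT or TG. Of these, 792 were negative, 53 lower and 15 higher at an unadjusted p of 0.05, with a median of -0.07. Over all mouse genes tested, 2.23% were lower and 2.29% higher at that p. For AG, GA, CT or TC the median over 529 genes was -0.02. Among the other triplets, each with its other frames and strand, AAT came nearest to AAG: 26 of 39 genes (66.7%) were negative, with a median of -0.08, and none was lower and 1 higher at an unadjusted p of 0.05. AGG runs, in 59 genes, had a median of 0.00. A gene can hold runs of several kinds. Whether the runs bear on the values was not tested.

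Other genes chosen by rank did not pass the threshold. Wapl, which releases cohesin from chromosomes, was listed at 709 and 671 at week 0 and at 1179 and 1112 at PBS week 8, a log2 fold change of 0.68 ± 0.10 (limma adjusted p = 0.121). Zfp697, a zinc finger protein, was listed at 515 and 494 and at 701 and 704 (limma adjusted p = 0.0891). Dhx16, an RNA helicase of splicing, was listed at 604 and 610 at week 0 and at 436 and 482 at PBS week 8. Cnga1, a subunit of the rod photoreceptor channel, was listed at 43 and 39 and at 23 and 21, and is 1 of the 55 genes with an AAG run, as is Atp2b4, which was listed at 8283 and 8443 and at 6528 and 6480. Reg2, a secreted lectin of the regenerating pancreas, was listed at 2001 and 1908 at week 0 and at 2542 and 2588 at PBS week 8.

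Of the 29 lists analysed other than the mitochondrial mRNAs, the erythroid list alone held a called gene, Hba-a2. These lists cover blood cells, liver, bone, muscle, vessels, fat and cellular programmes, among others, and their medians ran from -0.18 to 0.20. These limits depended on single libraries: they were -0.29 and 0.61 without PBS week 8 replicate 1, -0.15 and 0.38 without PBS week 8 replicate 2, and -0.29 and 0.35 without week 0 replicate 1. The lowest was that of endothelial cells, with 12 tested, and the highest that of MHC class I and antigen processing, with 8. Platelet genes, of which 5 of 20 were tested, had a median of 0.18, and Pf4, the chemokine of platelet granules, was listed at 29 and 17 at week 0 and at 39 and 30 at PBS week 8. Neutrophil genes, with 4 of 16 tested, had a median of 0.19. Bone lists stood near 0 after 8 weeks in which a tibia had been injected: osteoblast and matrix genes had a median of -0.10 over 9 genes and osteoclast genes of -0.04 over 7. Col1a1, the main collagen of bone, was listed at 15 and 17 and at 21 and 11.

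Liver genes pointed in both directions. Of 34 hepatocyte and plasma carrier genes 13 were tested, with a median of -0.06. Mup1, a major urinary protein, was listed at 11 and 12 at week 0 and at 7 and 4 at PBS week 8, and Serpina1b, an antitrypsin, at 21 and 13 and at 5 and 7. Apoe, a lipid carrier, was listed at 7 and 4 and then at 9 and 12. Alb, the mRNA of albumin, was listed at 10 and 14 and at 7 and 13, which overlap. None of these passed (limma adjusted p from 0.957 to 1).

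The clock gene Per2, a repressor within the circadian feedback loop, was listed at 4 and 3 at week 0 and at 12 and 14 at PBS week 8. Its log2 fold change was 1.50 ± 0.41 (limma adjusted p = 0.636), and the 9 clock genes tested had a median of 0.05. The interferon-stimulated list had a median of 0.09 over 10 genes, the cell cycle list 0.08 over 12 and the acute phase list -0.08 over 6. Rpl9, a ribosomal protein, was listed at 14 and 12 and at 2 and 4, a log2 fold change of -1.77 ± 0.42 (limma adjusted p = 0.474). The 17 structural RNAs of the last list were not analysed here.

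**Figure D4:**
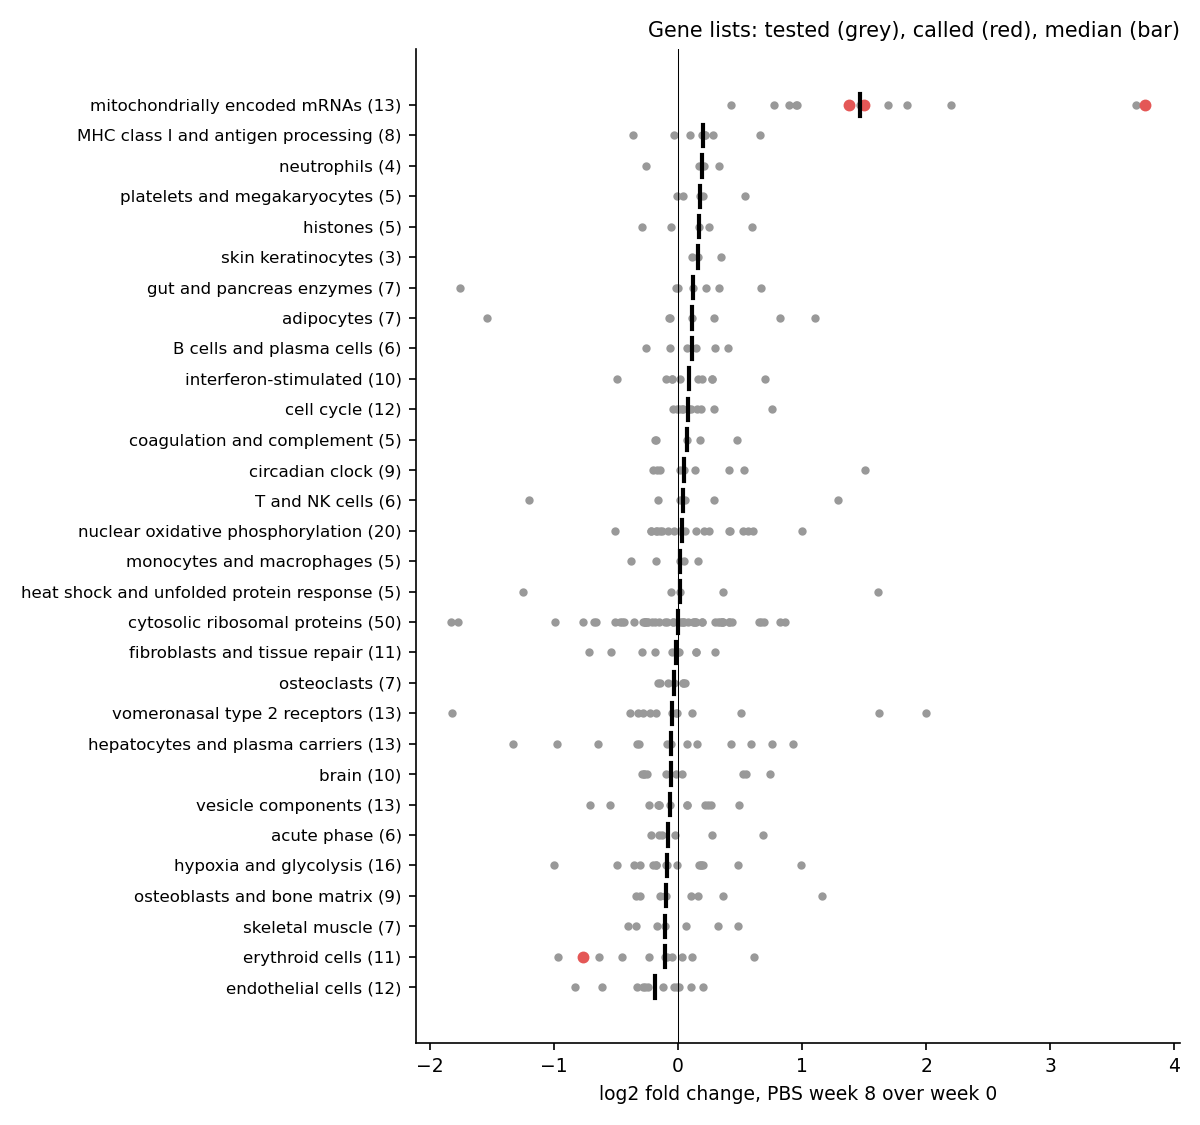
Log2 fold change (PBS week 8 over week 0) of each tested member of the gene lists, with the number tested in parentheses; grey points are members not past an adjusted p of 0.05, red points are called members and bars are medians. The mitochondrially encoded mRNAs have a median of 1.46, and the 29 other lists have medians between -0.18 and 0.20 with all libraries, or between -0.29 and 0.61 without PBS week 8 replicate 1.

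The table also lists canine genes, although none of the mice behind these 4 libraries had received canine cells when bled. Canine genes held 16.1% and 17.4% of the total at week 0 and 14.7% and 15.2% at PBS week 8, a difference of -1.74 percentage points at the smallest exact permutation p of 0.333. Without the single highest canine gene the shares were 11.3% ± 0.452 at week 0 and 10.8% ± 0.102 at PBS week 8 (SD, n = 2 each). Of the 4 canine genes called, 3 were lower and 1 higher. ENSCAFG00000028657 was listed at 4237 and 4632 at week 0 and at 1210 and 1327 at PBS week 8, a log2 fold change of -1.86 ± 0.07 (limma adjusted p = 0.000111). ENSCAFG00000028898 was listed at 1388 and 1520 and at 178 and 175, a log2 fold change of -3.08 ± 0.13 (limma adjusted p = 0.000152). These 2 were the calls that remained whichever of the 8 libraries was left out. In the 4 libraries of grafted mice their deposited values ran from 4206 to 4800 and from 1618 to 2270. Among deposited values the PBS pair alone was low. The grafted libraries had the smaller scaling factors, so scaling raises their values relative to both compared groups. The canine gene that rose, ENSCAFG00000009243, was listed at 22 and 24 at week 0 and at 48 and 50 at PBS week 8. The identifiers carry no gene names in the tables used here.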

How the data were processed

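Exosomes were precipitated from serum with ExoQuick and their RNA was made into stranded SMARTer libraries, per the labels' protocols. Reads were handled with kallisto 0.43.0, Trimmomatic 0.33.0 and FastQC 0.11.5 on CanFam3.1 and GRCm38.p5, per the submitters' processing notes. The authors' annotation is not given in the sources used here. Values deposited by the authors are whole numbers and are treated as a score, because all libraries have almost equal totals, as TPM values would. They keep no depth, so no counting interval is given.

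A count model did not suit these values, so limma 3.58.1 (R 4.3.3) was run on log2(scaled value + 1), with an unweighted trimmed mean of log ratios (30% of ratios and 5% of levels trimmed at each end), genes of at least 10 in at least 2 libraries, 1 mean per group over all 8 libraries (4 residual degrees of freedom), a variance trend and Benjamini-Hochberg adjustment over 7872 genes. Symbols, coordinates and sequences are from GENCODE M21 on GRCm38, which matched 31171 of 31300 mouse identifiers. Copies were found with BLAST 2.17.0. The procedure was tested on simulated data.

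The comparison and the 31 gene lists were chosen with earlier results of these data known. Genes were named by rank: up to 12 per direction among called genes with established symbols, filled to 10 by p, the leading list members and the 12 highest. Gm genes, and genes with AAG runs outside that rule, were chosen after their values were seen. Alternatives were other scalings, filters, pseudocounts, fits and blocks, and leaving out each library.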

Additional observations from a re-analysis of the deposited data

How the results depend on the processing

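Against 13 calls with the settings reported, no filter left 2, a minimum of 5 left 8, a mean of at least 50 gave 24 (8 of them shared with the 13), only the 4 libraries compared gave 4, no variance trend 5, mouse genes only 8, and removal of mitochondrial and haemoglobin genes 8. Leaving out 1 library gave 2 to 10 calls; with fewer libraries 1 group has a single library, which is assumed to vary like the others. The replicate number as a block left 6 calls over all 8 libraries and 2 over the 4 compared. Libraries with the same number did not deviate together (r from -0.0564 to 0.00521 between groups), so they share only a number. Median-of-ratios scaling gave the same 13 genes.

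The median log2 fold change of the 13 mitochondrial mRNAs was positive in every setting run that held them. It was 1.17 with a pseudocount of 4 and 1.27 to 1.66 when 1 library was left out. Among the mouse genes refitted singly, mt-Atp6 was the one that turned: it ranged from -2.45 to 3.31 when 1 library was left out, with -2.02 without week 0 replicate 1 and -2.45 without PBS week 8 replicate 2. The median of genes with AAG runs was -0.07 with library totals alone, where that of all mouse genes was 0.05. For AAG runs of at least 18 bases it was -0.06, and for those of at least 36 bases -0.12. The medians of the other lists ran from -0.75 to 0.37 with a mean of at least 50, which left 19 lists. Fold changes of the canine genes and of the summed pairs were not recomputed under the alternatives.

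The canine share differed by -0.50 points without its highest gene and by -2.38 to -1.09 when 1 library was left out. The difference in genes listed at 1 or more, both species together, was 126.5, at 5 or more 1010, at 10 or more 467, and -43 to 296 when 1 library was left out. A count test was not run, because the values are not counts. With 2 libraries a group and unknown depth, small differences cannot be resolved.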
